A study of Mus musculus with 2 samples.

Results

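Alk, Ltk, Ptprz1, Ptn, Gfra1, Gfra2 and Ret form a small set of growth factor receptors, co-receptors and ligands whose RNA was followed across hypothalamic neurons. The members were the 7 of 32285 genes in the matrix with these symbols, and each symbol matched 1 row. They were chosen by measured values of these data, since Alk, Gfra1 and Gfra2 were each highest in a different neuron group. Their levels by neuron group are therefore given as a description, without a test.

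The study sorted NeuN-positive nuclei from micro-dissected arcuate nucleus (ARC) of wild type male C57BL/6J mice aged 10 to 12 weeks and profiled them by single-nucleus RNA sequencing. All nuclei were captured in 1 pooled gene expression library, and a second library held the hashtags, barcoded antibodies that mark the nuclei of 1 preparation before pooling. The files named the 2 hashtags ARC and PVH, the usual abbreviation of the paraventricular nucleus of the hypothalamus, whereas the sample labels gave only ARC. No treatment was compared, and the labels did not tie nuclei to mice, so all nuclei were treated as 1 sample without replicates.

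ALK and LTK are related receptor tyrosine kinases whose ligands are the secreted ALKAL proteins, and ALK in the hypothalamus has been linked to leanness through energy expenditure. The GDNF family of neurotrophic factors acts through a co-receptor anchored to the membrane, GFRA1 mainly for GDNF and GFRA2 mainly for neurturin, which brings the ligand to the receptor tyrosine kinase RET. Pleiotrophin, the product of Ptn, is a secreted heparin-binding growth factor, and PTPRZ1 is a receptor-type tyrosine phosphatase that binds it and that is also known as a glial gene.

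After filtering and demultiplexing, 3767 nuclei carried the ARC hashtag and 3074 the PVH hashtag. Clustering without the members among the variable genes gave 20 neuron clusters with 6812 nuclei, of which 3750 carried ARC and 3062 PVH. The median depth was 4828 unique molecular identifiers (UMIs, each 1 captured RNA molecule) in ARC neurons and 5039 in PVH neurons. A further cluster of 29 oligodendrocyte-like nuclei was set aside, and 2385 nuclei had no hashtag call. Levels are UMIs per 1000000 summed UMIs (CPM), brackets after a level, share or ratio hold its 95% interval, and these intervals cover counting error only.

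The labelled cell type was checked against its markers. All 5 neuronal markers were found in the ARC neurons, at a summed 2253 CPM, and in the PVH neurons, at 2445 CPM. The 5 astrocyte markers summed to 10.7 and 6.01 CPM. Other non-neuronal lists summed higher, at 114 and 100 CPM for microglia, 67.0 and 44.4 CPM for tanycytes and 66.3 and 55.0 CPM for oligodendrocytes. The ependymal, oligodendrocyte precursor and endothelial lists each summed to at most 2.94 CPM. Cluster 8 stood apart, with 110 CPM of astrocyte markers, 255 CPM of tanycyte markers and a median depth of 3681 UMIs, and its values are marked wherever they matter. Cluster 3 passed the dopaminergic markers Th, Ddc and Lhx1, but its dopamine transporter gene Slc6a3 was at 0.57 CPM, against 22.8 CPM in the dopaminergic-like cluster 4, so it is called here by its leading gene Lef1.

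The highest cluster of a member exceeded the other neurons by 2-fold or more for 6 of the 7 members, all but Ptn. Among 14077 genes with at least 100 UMIs in neurons, 25.7% had a cluster this high, and 13.1% did among genes with at least 1000 UMIs. Having a leading cluster is thus common in these data, and the places of the leading clusters are what the following values describe.

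**Figure D1:**
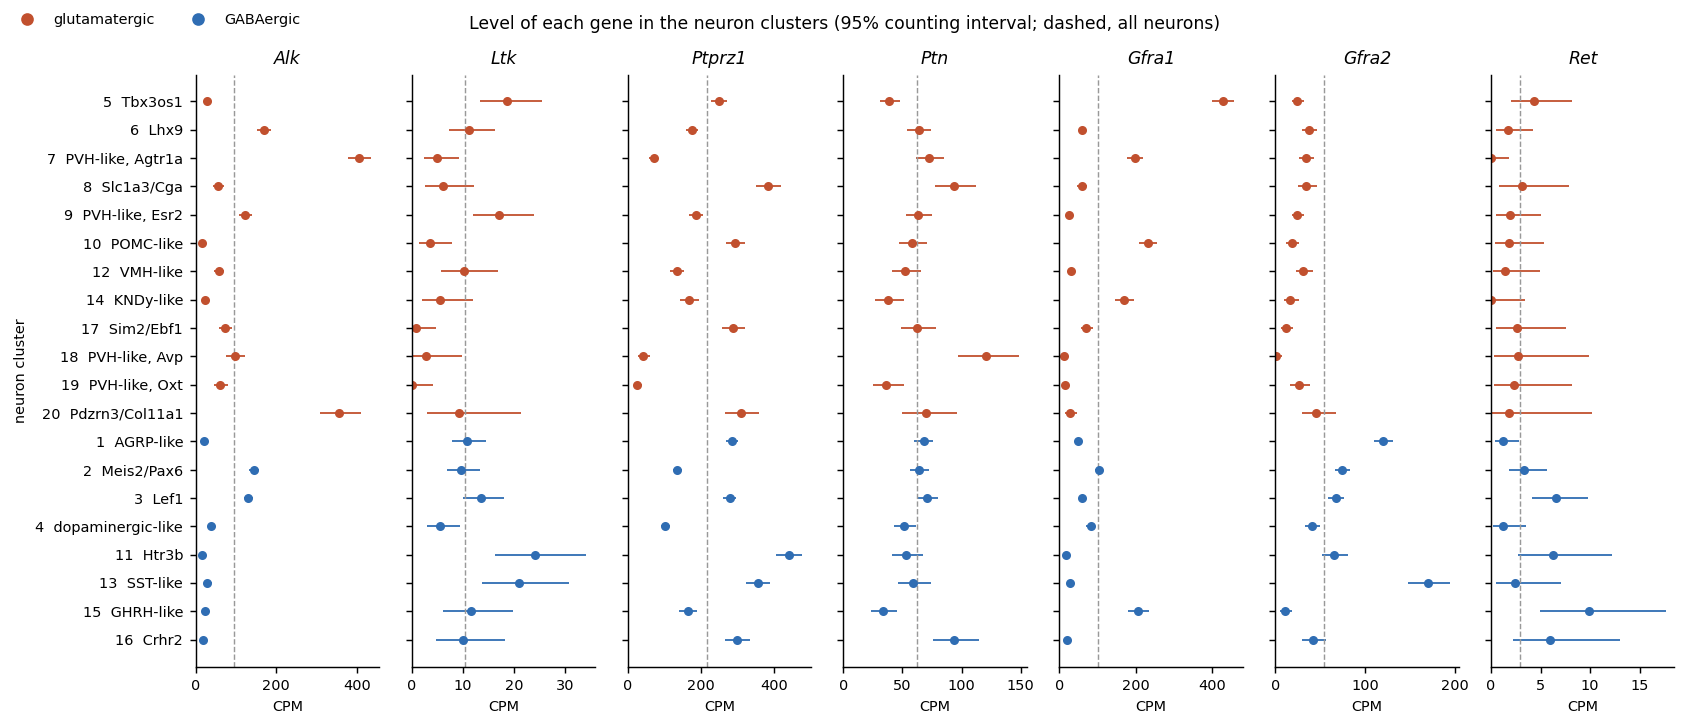
Level of each member, in CPM on the horizontal axis, in each of the 20 neuron clusters, with points for levels, bars for 95% counting intervals, colours for the class of the cluster and a dashed line for all neurons. Alk stands out in clusters 7 and 20 (405 and 356 CPM), Gfra1 in cluster 5 (428 CPM) and Gfra2 in clusters 13 and 1 (170 and 121 CPM), while Ptn stays between 33.2 and 121 CPM.

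Alk lies on chromosome 17 (chr17:71868972-72604627, minus strand, GRCm38), where its long gene body contains 4 small annotated genes. It was found at 95.3 CPM (92.1 to 98.5) in neurons, from 3436 UMIs. Its highest level, 405 CPM (378 to 434), was in cluster 7, a PVH-like cluster of 387 nuclei with Sim1, the transcription factor gene that marks paraventricular neurons, Agtr1a and Prdm8. The next was cluster 20, an unnamed glutamatergic cluster of 112 mostly ARC nuclei led by Pdzrn3 and also marked by Col11a1, at 356 CPM (308 to 410). The intervals of these clusters overlapped each other and no other cluster's. The log2 fold of cluster 7 over the other neurons was 2.39 (2.28 to 2.51). With a stricter hashtag quantile of 0.99, which left 407 PVH nuclei, the highest cluster held 132 nuclei at a log2 fold of 1.37, and 25 of these came from cluster 7.

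Clusters that were rich in PVH nuclei or mixed followed at lower levels. Alk was at 168 CPM in the Lhx9 cluster 6, at 145 CPM in the Meis2 and Pax6 cluster 2, at 130 CPM in the Lef1 cluster 3 and at 123 CPM in the Esr2 PVH-like cluster 9. Neighbours in this order overlapped in their intervals. The Avp and Oxt PVH-like clusters 18 and 19, which passed the vasopressin and oxytocin genes among their markers, had 96.2 and 60.3 CPM. Alk was thus uneven among the PVH-like clusters as well as between hashtags.

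The arcuate classes best known for feeding control were near the bottom of the order. The AGRP-like cluster 1 had Alk at 21.4 CPM (17.2 to 26.3), the POMC-like cluster 10 at 15.8 CPM and the Htr3b cluster 11 at 14.8 CPM, the lowest value. The intervals of these clusters overlapped, so their order was not settled. Their levels also lay within the interval of the oligodendrocyte-like nuclei, used below as background, at 25.3 CPM (6.90 to 64.8) from 4 UMIs. The level in cluster 7 was 27.4 times that in cluster 11, a ratio to a level not told apart from this background. Of the 20 clusters, 2 were 2-fold or more above the other neurons and 9 were at most 0.5 times their level.

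Counts per nucleus showed the same contrast. In cluster 7, 67.2% of nuclei (62.3 to 71.8) held an Alk UMI and 12.7% held 5 or more, and in cluster 20 the shares were 63.4% and 14.3%. Among the 6313 other neurons 79.8% held none, 12.1% held exactly 1 and 1.33% held 5 or more. Depth was similar, at a median of 4708, 4632 and 4934 UMIs. After thinning each nucleus to 1000 UMIs, 28.4% of cluster 7 still held an Alk UMI, against 1.43% of the AGRP-like cluster and 3.45% of the oligodendrocyte-like nuclei, a cell type that serves here as the background (6.90% before thinning, 2 of 29 nuclei, median depth 4750 UMIs). In the Meis2 and Pax6 cluster 2, where 36.4% of nuclei held an Alk UMI, the tenth of nuclei with most Alk held 55.9% of its UMIs and 1 nucleus held 21.

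**Figure D2:**
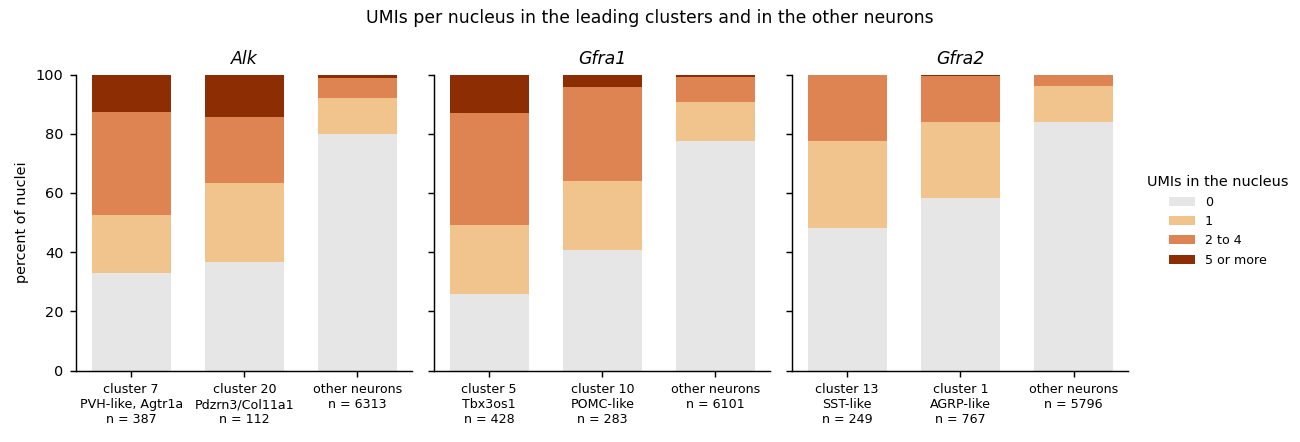
Percent of nuclei (vertical axis) with 0, 1, 2 to 4, or 5 or more UMIs of Alk, Gfra1 and Gfra2, in the 2 highest clusters of each gene and in all other neurons. Nuclei with 5 or more UMIs made up 12.7% and 14.3% of the Alk clusters 7 and 20 and 13.1% of the Gfra1 cluster 5, but none of the Gfra2 cluster 13.

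Compared by hashtag, Alk was the member that differed most. It was at 153 CPM (147 to 159) in PVH neurons and 46.0 CPM (43.0 to 49.1) in ARC neurons, a log2 ratio of 1.73 (1.62 to 1.84). It was the only 1 of the 7 members to pass 2-fold towards PVH, where 1.78% of 14077 genes did, and no member passed 2-fold towards ARC, where 1.40% did. The share of nuclei with an Alk UMI was 35.4% in PVH neurons and 13.9% in ARC neurons, or 11.7% and 3.60% after thinning.

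The ratio passed 2-fold within each class of neuron. It was 1.39 (1.25 to 1.54) on the log2 scale among glutamatergic neurons, the clusters with more Slc17a6 than Slc32a1 per UMI, where 1.73% of genes passed 2-fold in this direction. Among the GABAergic others it was 1.93 (1.76 to 2.11), where 1.71% did. Within the clusters that held at least 50 nuclei of each hashtag the ratio stayed under 2-fold or went the other way. The log2 ratio was 0.41 (0.12 to 0.72) in cluster 3. The other such clusters had under 100 Alk UMIs each, too few for the 2-fold rule. Their ratios were 0.08 (-0.58 to 0.71) in cluster 4, -0.36 (-1.20 to 0.41) in the VMH-like cluster 12 and -1.50 (-2.38 to -0.70) in cluster 8, with its astrocyte and tanycyte markers, and without cluster 8 the ratio over all neurons was 1.81.

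Nuclei with the less common hashtag of a cluster had Alk levels above that of all neurons in the clusters where Alk led. The 17 ARC nuclei of cluster 7 had 273 CPM (188 to 384), against 414 CPM (385 to 444) in its 370 PVH nuclei. The 6 PVH nuclei of cluster 20 had 243 CPM (105 to 479), against 364 CPM (313 to 420) in its 106 ARC nuclei. The 36 ARC nuclei of cluster 2 had 128 CPM (86.2 to 182), beside 146 CPM (134 to 159) in its PVH nuclei. The intervals of the 2 hashtags overlapped in clusters 20 and 2 and just missed each other in cluster 7.

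Glutamatergic neurons had more Alk than GABAergic neurons, at 123 and 69.7 CPM, a log2 ratio of 0.82 (0.72 to 0.92) that did not reach 2-fold. In clusters 5 and 8 the order of Slc17a6 and Slc32a1 was under 1.5-fold. Without them the ratio was 1.04 (0.94 to 1.14), and 1.52% of genes were then past 2-fold. It also passed 2-fold with these clusters counted as GABAergic (1.15), with up to 5% mitochondrial counts (1.45), with the hashtag quantile of 0.99 (1.93) and with 50 components (1.39), so the call of Alk between classes depended on the processing. In cluster 7, nuclei with a Slc17a6 UMI and no Slc32a1 UMI had 450 CPM of Alk (407 to 496). The 25 with the opposite had 390 CPM (296 to 504), an overlapping interval. The 170 nuclei with a UMI of neither gene had 352 CPM (313 to 394), an interval below that of the first group.

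Ltk, the relative of Alk, was rare, with 379 UMIs and 10.5 CPM (9.48 to 11.6) in neurons. It lies on chromosome 2 (chr2:119751320-119760431, minus strand). Its highest levels were 24.1 CPM (16.4 to 34.2) in the Htr3b cluster 11 and 21.0 CPM (13.7 to 30.8) in the SST-like cluster 13, clusters in which Alk was low. The levels overlapped along the whole upper part of the order. Cluster 11, the highest in Ltk, was among the lowest clusters in Alk, and the PVH-like cluster 7 had Ltk at 5.00 CPM. Ltk did not differ by hashtag beyond its interval, with 9.43 CPM in PVH and 11.4 CPM in ARC neurons and a log2 ratio of -0.28 (-0.58 to 0.02). Among nuclei with an Alk UMI 5.74% (4.65 to 6.99) also held Ltk, and among those without 4.84% (4.27 to 5.46) did, at median depths of 5222.5 and 4833 UMIs. After thinning the order was the other way, at 0.81% (0.22 to 2.06) and 0.98% (0.75 to 1.26), with overlapping intervals.

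The ligands of ALK were looked at as background for the receptor. Alkal2 had 332 UMIs in neurons, with a highest level of 15.7 CPM in the Esr2 PVH-like cluster 9, and it did not pass 2-fold in any comparison. Alkal1 had 21 UMIs in all. The neurons sampled thus held little RNA of either ligand at this depth.

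Gfra1, the GDNF co-receptor, lies on chromosome 19 (chr19:58235604-58455909, minus strand) and overlaps the antisense gene Gm16277. No source used here says whether the counting used strand, so reads of the pair may not be told apart. It was found at 100.2 CPM (96.9 to 103) in neurons, from 3613 UMIs. Its level was highest in cluster 5, at 428 CPM (400 to 457), which was 5.34 times the level of the other neurons and overlapped no other cluster. This cluster of 428 nuclei, 417 of them with the ARC hashtag, was led by Rab37, Mamdc2 and Tbx3os1, the antisense neighbour of Tbx3, and matched no marker list. It held 24.7% of all Gfra1 UMIs of neurons in 6.28% of the nuclei.

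The next clusters were arcuate classes with a name, together with 1 PVH-like cluster. Gfra1 was at 232 CPM (209 to 256) in the POMC-like cluster 10, at 205 CPM (179 to 234) in the GHRH-like cluster 15, at 197 CPM (178 to 218) in the Agtr1a PVH-like cluster 7 and at 170 CPM (146 to 196) in the KNDy-like cluster 14. Neighbours in this order overlapped. The AGRP-like cluster had 48.6 CPM, well under the POMC-like cluster, and the lowest levels were in the Avp cluster 18, with 8 UMIs, and the Oxt cluster 19, at 14.8 CPM. Cluster 7 was thus the only cluster 1.5-fold or more above the mean of all neurons for both Alk and Gfra1, whereas the other 3 PVH-like clusters were low in Gfra1.

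In cluster 5, 74.1% of nuclei (69.6 to 78.2) held a Gfra1 UMI and 13.1% held 5 or more. The POMC-like cluster had 59.4% and 4.24%. Among the 6101 other neurons, 77.5% held none and 0.67% held 5 or more. After thinning, the shares with a Gfra1 UMI were 30.1% in cluster 5 and 21.6% in the POMC-like cluster, against 10.3% in the oligodendrocyte-like nuclei. These 29 nuclei had 158 CPM of Gfra1 (102 to 234) from 25 UMIs, beside 100.2 CPM in all neurons, so they could not serve as background for this gene.

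Whether cluster 5 is glutamatergic or GABAergic could not be settled from the transporters. It had Slc17a6 at 44.2 CPM and Slc32a1 at 37.0 CPM, an order of under 1.5-fold. Its 58 nuclei with Slc17a6 alone had 450 CPM of Gfra1 (381 to 529) and its 62 nuclei with Slc32a1 alone had 380 CPM (313 to 456). Gfra1 was high on both sides of this split, with overlapping intervals.

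The class comparison of Gfra1 depended on the side and on this cluster. Over all neurons the level was 132 CPM in glutamatergic and 71.0 CPM in GABAergic neurons, a log2 ratio of 0.89 (0.79 to 0.99). Without clusters 5 and 8 it was 0.41 (0.30 to 0.52), and with both counted as GABAergic it turned to -0.14 (-0.24 to -0.04). It was 0.16 at a resolution of 1.2, 0.15 with classes set nucleus by nucleus and 0.03 with 50 components, and just past 2-fold, at 1.01, as a mean over nuclei. Among ARC neurons alone it was 1.75 (1.62 to 1.88), past 2-fold as were 1.5% of 12443 genes, but 1.10 (0.95 to 1.26) without clusters 5 and 8 and 0.21 (0.07 to 0.34) with them counted as GABAergic. Among PVH neurons it was -0.22 (-0.38 to -0.07).

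By hashtag, Gfra1 was at 82.8 CPM in PVH and 115 CPM in ARC neurons, a log2 ratio of -0.48 (-0.57 to -0.38). The values within the classes rested on where cluster 5 was placed, since it held 868 of the 1535 Gfra1 UMIs of ARC glutamatergic neurons. With it as glutamatergic, these neurons had 77.4 CPM in PVH and 200.4 CPM in ARC, a log2 ratio of -1.37 (-1.50 to -1.25) where 1.51% of genes passed 2-fold towards ARC, while GABAergic neurons had 90.3 and 59.5 CPM, a ratio of 0.60 (0.44 to 0.76). Without clusters 5 and 8 the glutamatergic ratio was -0.75 (-0.91 to -0.59), under 2-fold. With both counted as GABAergic the GABAergic ratio turned to -0.29 (-0.42 to -0.16), so opposite directions in the classes were not settled by these data. In the dopaminergic-like cluster 4, which held 323 ARC and 185 PVH nuclei, Gfra1 was at 124 CPM in PVH and 60.4 CPM in ARC nuclei, a log2 ratio of 1.04 (0.63 to 1.45) where 1.14% of 5426 genes passed 2-fold towards PVH.

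**Figure D3:**
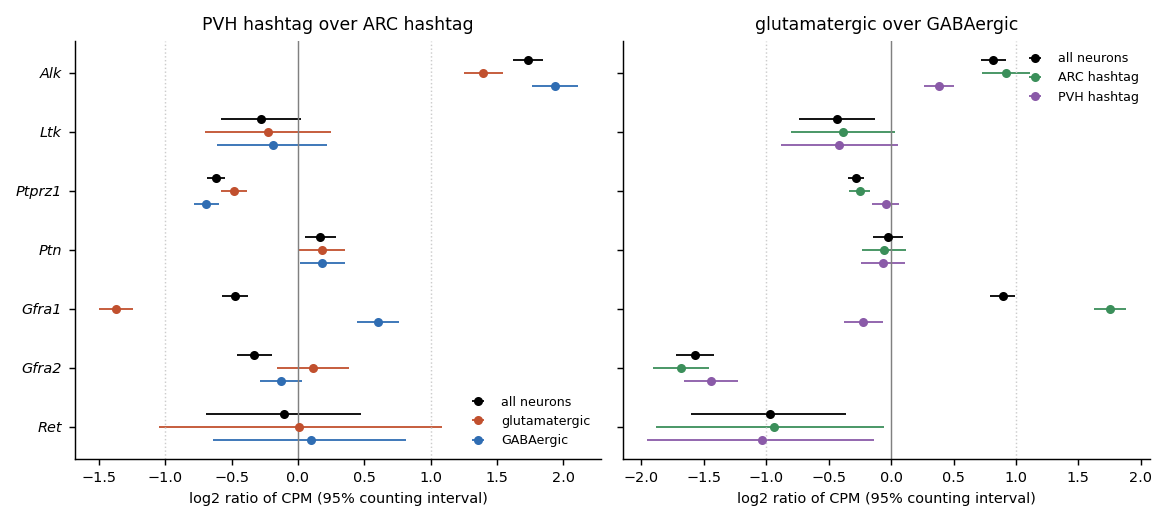
Log2 ratio of CPM for each member between hashtags (left) and between glutamatergic and GABAergic clusters (right), over all neurons and within each class or hashtag, with 95% counting intervals and dotted lines at 2-fold. Alk lies to the right in all 3 sets of neurons on the left (1.73, 1.39 and 1.93), Gfra1 lies at -1.37 and 0.60 in the classes as drawn (-0.75 and -0.29 with clusters 5 and 8 counted as GABAergic), and Gfra2 lies past -1 in all 3 sets on the right (-1.57, -1.68 and -1.44).

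Gfra2, the neurturin co-receptor, had its highest levels in GABAergic clusters. It lies on chromosome 14 (chr14:70890120-70979838, plus strand) and was found at 53.9 CPM (51.5 to 56.3) in neurons, from 1943 UMIs. The SST-like cluster 13, a GABAergic arcuate cluster with Unc13c, Tacr1 and Pth2r, had 170 CPM (148 to 194), and the AGRP-like cluster 1 had 121 CPM (110 to 132). Neither interval overlapped the other or any lower cluster. The AGRP-like cluster was the largest of all and held 25.8% of the Gfra2 UMIs of neurons.

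The following places were also taken by GABAergic clusters. Gfra2 was at 74.6 CPM in the Meis2 and Pax6 cluster 2, at 67.5 CPM in the Lef1 cluster 3 and at 65.3 CPM in the Htr3b cluster 11, with overlapping intervals. The GHRH-like cluster 15 was the lowest GABAergic cluster, at 10.8 CPM, although it was among the highest in Gfra1. The Avp cluster 18 had a single Gfra2 UMI, which gives 1.37 CPM, and the POMC-like and KNDy-like clusters had 18.3 and 16.5 CPM.

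Counts of Gfra2 per nucleus were low even where it led. In the SST-like cluster 51.8% of nuclei (45.4 to 58.2) held a UMI, 29.3% exactly 1, and no nucleus of 249 held 5 or more, which allows a share of up to 1.47%. In the AGRP-like cluster the share was 41.9% (38.3 to 45.4). Among the 5796 other neurons 83.8% held none, and in the oligodendrocyte-like nuclei 3.45% held any. Thinned shares were 15.3% in the SST-like and 11.3% in the AGRP-like cluster.

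Glutamatergic neurons had 26.6 CPM of Gfra2 (24.2 to 29.1) and GABAergic neurons 79.1 CPM (75.1 to 83.2), a log2 ratio of -1.57 (-1.73 to -1.42). Gfra2 was the only 1 of the 7 members to pass 2-fold in this comparison, on the side where 0.803% of genes did, and no member passed it on the glutamatergic side, where 1.41% did. This count changed with the processing: Alk passed on the glutamatergic side under 5 of 13 alternatives and Ret, whose UMIs are near the minimum of 100, lay past it on the GABAergic side under 6 of 13. The ratio was -1.68 among ARC neurons, where 1.24% of genes passed 2-fold towards GABAergic neurons, and -1.44 among PVH neurons, where 0.996% did. The ratio over all neurons also moved with the processing. With 50 components it was -0.84, and nuclei of the GABAergic cluster 2 and the glutamatergic cluster 6 then fell into 1 cluster. With classes set nucleus by nucleus from the transporter UMIs it was -1.19. The cause of these moves was not tested.

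By hashtag Gfra2 was nearly level, at 47.3 CPM in PVH and 59.5 CPM in ARC neurons, a log2 ratio of -0.33 (-0.46 to -0.20). Within glutamatergic neurons the interval of the ratio included 0, and so it did within GABAergic neurons. In the mixed Lef1 cluster 3, Gfra2 was at 82.2 CPM in PVH and 40.0 CPM in ARC nuclei, a log2 ratio of 1.04 (0.58 to 1.52) where 0.459% of 6759 genes passed 2-fold towards PVH.

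Gfra1 and Gfra2 were compared as alternative partners of RET. Over the 20 neuron clusters, which share 1 library and its depth, their log2 levels had a Pearson r of -0.13, as a description. Of nuclei with a Gfra1 UMI 17.7% also held Gfra2, against 21.4% of nuclei without, at median depths of 5029 and 4871 UMIs. After thinning the shares were 2.82% (1.65 to 4.48) and 5.12% (4.59 to 5.70). Inside cluster 2, where both were found, the shares were 27.9% and 27.8%, so the difference over all neurons was not present there.

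**Figure D4:**
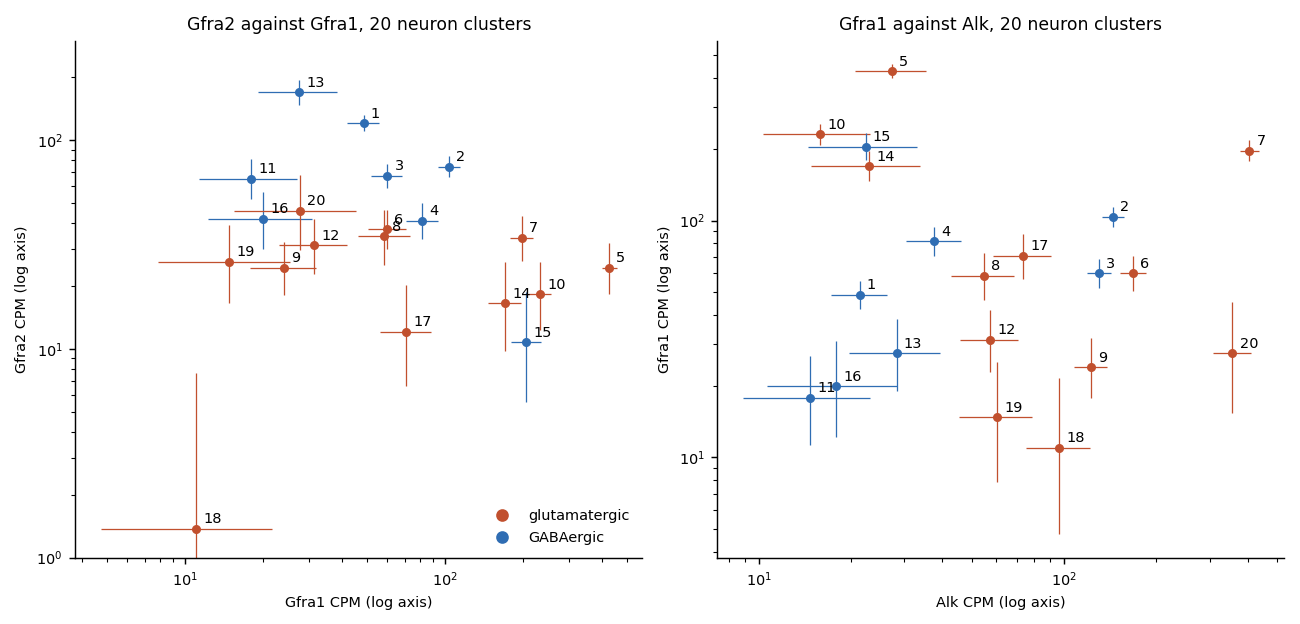
Level of Gfra2 against Gfra1 (left) and of Gfra1 against Alk (right) in the 20 neuron clusters, in CPM on log axes, with 95% counting intervals and cluster numbers. Clusters 13 and 1 lie high in Gfra2 and low in Gfra1, clusters 5, 10, 15 and 14 the other way round, and cluster 7 alone lies high in both Alk and Gfra1 (405 and 197 CPM).

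Ret itself, the shared signalling receptor, lies on chromosome 6 (chr6:118151745-118197718, minus strand) and was scarce, with 106 UMIs and 2.94 CPM (2.41 to 3.55) in neurons. Its highest level was 9.86 CPM (4.92 to 17.6) in the GHRH-like cluster 15, from 11 UMIs, and the next was 6.53 CPM (4.14 to 9.79) in the Lef1 cluster 3, from 23 UMIs. No Ret UMI was found in cluster 7 or in the KNDy-like cluster 14, with upper limits of 1.85 and 3.39 CPM, and the interval in cluster 5, where Gfra1 led, included the level of all neurons. Of the clusters high in Gfra1, the GHRH-like cluster was thus the only 1 also at the top for Ret, and its interval overlapped those of the following clusters.

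The shares of nuclei with Ret overlapped in their intervals with and without a co-receptor. It was found in 1.13% (0.70 to 1.72) of nuclei with a Gfra1 UMI and 1.64% (1.30 to 2.03) of nuclei without. For Gfra2 the shares were 1.51% (0.94 to 2.30) and 1.49% (1.19 to 1.85). After thinning the shares with and without Gfra1 were 0.66% (0.18 to 1.69) and 0.29% (0.17 to 0.46), from 4 and 18 nuclei with Ret. With and without Gfra2 they were 0% (0 to 1.10) and 0.34% (0.21 to 0.51). Ret was at 1.96 CPM in glutamatergic and 3.84 CPM in GABAergic neurons, a log2 ratio of -0.97 (-1.60 to -0.36) that turned to 1.42 with the hashtag quantile of 0.99. At 106 UMIs a joint presence of Ret and a co-receptor in the same nucleus was hardly detectable.

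The other genes of the GDNF family also had few UMIs. In neurons Gdnf had 30 UMIs, 6 of them in the Oxt cluster 19, Nrtn, the neurturin gene, had 23, Artn 10 and Pspn 1. Among co-receptors Gfra4 had 232 UMIs, with no cluster past 2-fold, Gfral, the receptor of GDF15, had 54 and Gfra3 had 9. Gdf15 had 3. Ligand genes at this level could not be compared between clusters.

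Ptprz1, the receptor phosphatase, lies on chromosome 6 (chr6:22875502-23052916, plus strand) and was found in 53.0% of neurons, at 217 CPM (212 to 222) from 7834 UMIs. After thinning the share was 18.4%, against 6.90% (0.85 to 22.8) of the oligodendrocyte-like nuclei (17.2% before). These 29 nuclei also passed the markers Pdgfra, Cspg4, Olig1 and Olig2. They had 127 CPM of Ptprz1 (77.3 to 196) from 20 UMIs, 14 of them in 1 nucleus, so they could not serve as background for Ptprz1. In neurons, its levels differed by cluster. Its highest level was 441 CPM (405 to 479) in the Htr3b cluster 11, followed by 385 CPM (352 to 420) in cluster 8 and 356 CPM (323 to 391) in the SST-like cluster 13, with overlapping neighbours. The fold over the other neurons was 2.11 in cluster 11, the only cluster past 2-fold, and no cluster passed it at a resolution of 0.3 or in ARC nuclei clustered alone (log2 folds of 0.94 and 0.88). With 5% mitochondrial counts, a resolution of 1.2 or 50 components, the leading cluster held no nucleus of cluster 11. The same held with the members among the variable genes. At a resolution of 1.2 the leading cluster had 511 CPM (473 to 551), with 153 nuclei from cluster 3 and 143 from cluster 8. In cluster 11 the 5 astrocyte markers summed to 3.89 CPM, and Gja1, Slc1a3 and Gfap were at 0.

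The lowest levels of Ptprz1 were in PVH-like clusters. It was at 26.2 CPM in the Oxt cluster 19, 42.6 CPM in the Avp cluster 18 and 71.1 CPM in cluster 7, where Alk led. The Esr2 PVH-like cluster 9 had 186 CPM, and cluster 17, with Sim1 at 198 CPM, had 289 CPM. The level of Ptprz1 in the AGRP-like cluster was 285 CPM and in the POMC-like cluster 294 CPM. By hashtag it was at 168 CPM in PVH and 259 CPM in ARC neurons, a log2 ratio of -0.62 (-0.69 to -0.55), with -0.48 among glutamatergic and -0.69 among GABAergic neurons. In the dopaminergic-like cluster 4 it was at 56.6 CPM in PVH and 126 CPM in ARC nuclei, a ratio of -1.16 (-1.64 to -0.70) where 1.31% of genes passed 2-fold towards ARC.

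Since Ptprz1 is also a glial gene, cluster 8 was divided by its astrocyte and tanycyte markers. The 111 nuclei with a UMI of any of the 9 marker genes had 404 CPM of Ptprz1 (346 to 469), and the 230 nuclei without had 376 CPM (336 to 419). Ptn differed more, at 140 CPM (107 to 180) and 71.1 CPM (54.5 to 91.1). The other neurons with and without such a UMI had 216 and 209 CPM of Ptprz1. Such a UMI was found in 1354 of these other neurons, and the tanycyte markers Col23a1 and Scn7a were at 39.4 and 15.9 CPM over all neurons. The division could thus not separate glial from neuronal nuclei. In cluster 8 the intervals of Ptprz1 with and without these markers overlapped, and those of Ptn did not.

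Ptn, the pleiotrophin gene, was the most even member. It lies on chromosome 6 (chr6:36714929-36810220, minus strand) and was found at 62.5 CPM (60.0 to 65.2) in neurons, from 2255 UMIs. Its levels in the 20 neuron clusters ran from 33.2 CPM in the GHRH-like cluster 15 to 121 CPM (97.0 to 149) in the Avp cluster 18, a span of 3.65-fold, and no cluster passed 2-fold in either direction. Cluster 18 was close to it, at a log2 fold of 0.98, and passed it without cluster 8, at 1.01. The log2 ratio was 0.17 (0.05 to 0.29) between PVH and ARC neurons and -0.03 (-0.15 to 0.09) between glutamatergic and GABAergic neurons. In the oligodendrocyte-like nuclei Ptn was at 272 CPM (197 to 367), from 43 UMIs.

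The share of nuclei with Ptprz1 was similar with and without its ligand gene. Of nuclei with a Ptn UMI 54.6% (52.2 to 56.9) also held Ptprz1, against 52.5% (51.1 to 53.9) of those without, and after thinning both shares were 18.4%. Ptprz1 was seen less often beside Alk, a receptor that pleiotrophin has also been reported to engage. Of nuclei with an Alk UMI 47.2% (44.7 to 49.7) held Ptprz1, against 54.8% (53.5 to 56.2) of nuclei without, or 13.2% and 18.8% after thinning. Both shares pool all neuron clusters, and cluster 7, where Alk led, had Ptprz1 at 71.1 CPM. Whether the shares differed within clusters was not tested.

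The wider pathway was followed with 31 listed genes that are no members: ligands, other co-receptors, partners of pleiotrophin and adaptors of the receptors. Of these 20 had at least 100 UMIs. None passed 2-fold towards PVH, where 1.78% of all genes did, or towards glutamatergic neurons, where 1.41% did. The adaptor gene Gab1 was the only 1 of the 20 to pass it towards ARC and towards GABAergic neurons, beside 1.40% and 0.803% of all genes. The median log2 ratio over the 20 genes was -0.10 between hashtags and -0.08 between classes, beside -0.05 and -0.02 over all genes.

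Gab1, which couples receptor tyrosine kinases to downstream signalling, was at 7.57 CPM in PVH and 24.7 CPM in ARC neurons, a log2 ratio of -1.71. Among the neuron clusters it was highest in the AGRP-like cluster, at 49.3 CPM and 3.92 times the other neurons. Cluster 8, with its astrocyte and tanycyte markers, had 45.4 CPM and the GHRH-like cluster 15 had 44.8 CPM. The oligodendrocyte-like nuclei had 424 CPM. With Gab1, the highest cluster passed 2-fold in 5 of the 20 listed genes, or 25%, a share near the 25.7% of all genes. The other 4 were Mdk, the midkine gene and relative of Ptn, in cluster 8, Nrp1 in the GHRH-like cluster 15, Alcam in cluster 20 and Shc1 in the Oxt cluster 19. For the other 15 of the 20 genes no cluster reached 2-fold above the rest, among them the adaptors Frs2, Grb2 and Dok6 and the pleiotrophin partners Ncam1, Cntn1 and Lrp1.

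For each member the genes with the most similar pattern were taken by the Pearson r of log2 levels over the 20 clusters, as a description. Nearest to Alk were A330102I10Rik (r = 0.81), Slc12a1 and Runx2 (0.80 and 0.79). Nearest to Gfra1 were Npy1r, the gene of a neuropeptide Y receptor (0.84), Map7d2 and Pi4kb, followed by Pgr, the progesterone receptor gene (0.79). Nearest to Gfra2 was Crhr1, the gene of a corticotropin-releasing hormone receptor (0.84), and nearest to Ptprz1 was Mettl24 (0.90). Between members the highest r was 0.58, of Ltk with Ptprz1, and the lowest -0.44, of Ptn with Gfra1.

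The nuclei without a hashtag call were not used for the clustering and served as further nuclei of the same library. Of these, 2356 were nearest to a neuron cluster. The same step returned 94.8% of the clustered nuclei to their own cluster. Those nuclei had themselves made the cluster means, so this share does not measure how well nuclei without a call were placed. The nuclei without a call were also shallower, at a median of 3926 UMIs against 4911 in those with 1 hashtag. Alk was again highest in cluster 7, at 365 CPM (328 to 405), Gfra1 in cluster 5, at 484 CPM (405 to 574), and Gfra2 in cluster 13, at 139 CPM (89.9 to 205), followed by cluster 1. Over the 20 clusters the levels correlated with those of the clustered nuclei at r = 0.90, 0.97 and 0.92, and at 0.96 for Ptprz1, 0.68 for Ltk and Ptn and 0.56 for Ret, as descriptions.

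Some clusters differed between these nuclei and the clustered ones. In the 36 nuclei nearest to cluster 20, Alk was at 122 CPM (65.0 to 209), below the 356 CPM (308 to 410) of the cluster itself, at a median depth of 2680 UMIs. Ptprz1 was highest in cluster 8 here, at 571 CPM (511 to 637), above the 385 CPM of its clustered nuclei. Ltk was highest in cluster 9 here, not in cluster 11, from 100 UMIs in all. Ret was highest in cluster 16, and with 44 UMIs in all its order was not readable.

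**Figure D5:**
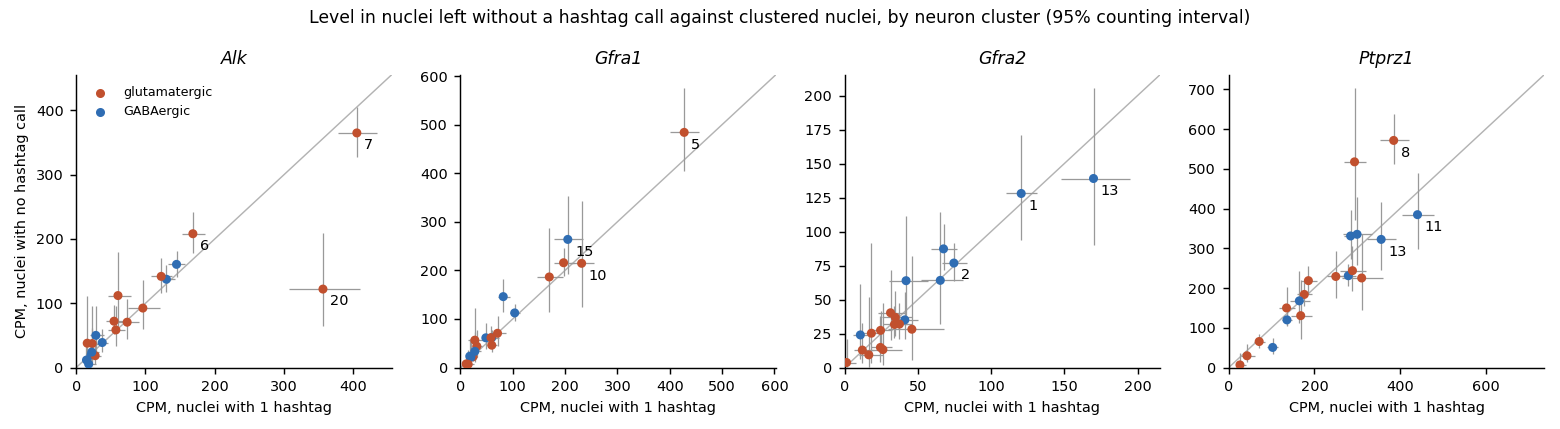
Level of Alk, Gfra1, Gfra2 and Ptprz1 in nuclei without a hashtag call (vertical axis) against clustered nuclei with 1 hashtag (horizontal axis), in CPM, for each of the 20 neuron clusters, with 95% counting intervals and a line of equality. Clusters 7, 5 and 13 lead on both axes for Alk, Gfra1 and Gfra2, and cluster 20 lies below the line for Alk (122 against 356 CPM).

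A finer clustering divided the leading groups unevenly. At a resolution of 1.2 the highest Alk level was 454 CPM (404 to 510) in a cluster of 111 nuclei, 70 of them from cluster 7 and 41 from cluster 6, and the next was 333 CPM in a cluster with 317 of the nuclei of cluster 7. All 112 nuclei of cluster 20 then fell together with 149 nuclei of cluster 5, into a cluster with 161 CPM of Alk and 281 CPM of Gfra1. A cluster of 277 further nuclei of cluster 5 had 412 CPM of Gfra1, the highest level at this resolution. The highest Gfra2 level stayed with 240 of the 249 nuclei of the SST-like cluster.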

How the data were processed

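The deposited matrix held whole-number UMI counts of each gene in 11409 barcodes, which the authors had not normalized. The submitters' processing notes name Cell Ranger 5.0, Seurat 4 and build mm10, and the matrix header names Cell Ranger 4.0.0. Positions came from GENCODE M21 (GRCm38). No annotation of nuclei was used here, so clusters and names were rebuilt in R 4.3.3 with Seurat 5.3.0 and summarised in Python 3.11.15. The study's filters kept nuclei with over 800 and under 5000 genes, at most 12000 counts and at most 1% mitochondrial counts, which left 10170. HTODemux (positive quantile 0.8) removed 944 hashtag doublets. No other doublet caller was run, so doublets within a hashtag remain. Singlets were clustered on 2000 variable genes, less the members and listed pathway genes, with 30 components and a resolution of 0.55.

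A cluster was named X-like when the first and at least 3 markers of a class reached 1.5 times the level of the remaining neurons with at least 3 UMIs each, and no other class had more among its 10 leading genes. Levels have exact Poisson intervals, shares exact Clopper-Pearson intervals, and ratios intervals from the exact binomial distribution of counts. No test could be made over samples, and 2-fold among genes with at least 100 UMIs was the rule for a difference. Genes alike were the 5 with the highest r of log2(CPM + 5) among genes with at least 200 UMIs in neurons. Levels are not divided by gene length, so they are not compared between genes. Nuclear RNA holds unspliced transcripts. The steps across genes were tested on simulated data. The members and lists were chosen with earlier results of these data known. Alternatives were other filters, hashtag quantile, clustering settings, weighting, class rule and count minimum, and some added after seeing the data.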

Additional observations from a re-analysis of the deposited data

How the results depend on the processing

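No paired analysis was possible because the data are 1 pooled library without replicates. The ratios of Alk between hashtags and of Gfra2 between classes kept their direction under all 6 and 13 alternatives run for them. A leading cluster is above the others by construction. The cause of the moves was not tested. With a positive quantile of 0.99, which left 1229 ARC and 407 PVH nuclei, the log2 ratio of Alk between hashtags was 1.55, that of Gfra2 between classes -1.37, and the leading clusters of Alk and Gfra1 stood at log2 folds of 1.37 and 2.19. The ratio of Ret between classes reversed there, to 1.42. With clusters 5 and 8 counted as GABAergic, a choice made after seeing the data, Gfra1 reversed to -0.14 between classes and to -0.29 between hashtags in GABAergic neurons. At the 0.99 quantile the leading cluster of Alk held 132 nuclei, 25 of them from cluster 7. The class ratio of Gfra2 was -1.33 without upper limits on genes and counts, -1.20 with 5% mitochondrial counts, -1.22 at a resolution of 1.2, -0.84 with 50 components, under 2-fold, and -1.19 with classes per nucleus. The log2 fold of the leading cluster moved to 2.27 for Alk and 2.21 for Gfra1 with 50 components, to 2.21 for Gfra1 at a resolution of 1.2, and to 2.10, 1.44 and 0.94 for Gfra1, Gfra2 and Ptprz1 at 0.3, where the AGRP-like nuclei led in Gfra2. In ARC nuclei clustered alone it was 2.22 for Alk, in 247 nuclei none of which came from cluster 7, 2.09 for Gfra1 and 0.88 for Ptprz1. Ptprz1 led in other nuclei, at 1.42 with 5% mitochondrial counts, 1.32 at a resolution of 1.2 and 1.51 with the members among the variable genes. With genes of at least 20 UMIs, 608 and 492 genes passed 2-fold towards PVH and ARC instead of 250 and 197, 568 and 305 between classes instead of 198 and 113, and 7454 had a leading cluster past 2-fold instead of 3619, which was 903 at 1000 UMIs, a limit chosen after seeing the data. At the 0.99 quantile 121 genes passed towards PVH and 1649 had a leading cluster, in ARC nuclei alone 2074 did, and with classes per nucleus 59 and 50 passed. In all 228 of 311 values stayed within the interval of the value reported, or within 1.5-fold for a count.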
